A study of Mus musculus with 2 samples.

Results

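The clustered histone genes were taken as the protein-coding genes of the table whose symbol begins with Hist1h, Hist2h, Hist3h or Hist4h, and 68 of 48526 genes met this rule. They were read from bulk polyA RNA sequencing of liver tumors, 1 library from WT mice and 1 from Fabp4-/- mice. All mice were male C57BL/6N, were injected with N-nitrosodiethylamine (DEN, a liver carcinogen) at 25 mg/kg when 14 days old, and ate a high-fat diet (HFD) for 29 weeks from 6 weeks of age. The mice therefore differed by label only in Fabp4, which encodes a fatty acid-binding protein of adipocytes and is knocked out in the Fabp4-/- mice. Neither the labels nor the methods say how many mice or nodules went into a library. As each genotype has a single library, no difference below has a replicate check or a p-value, and all statements describe these 2 libraries.

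Core histones H2A, H2B, H3 and H4 form the protein spool around which DNA is wrapped, and linker histone H1 binds where DNA enters and leaves it. Most of their genes lie in clusters, are expressed mainly in S phase and lack introns. Their mRNAs usually end not in a poly(A) tail but in a short stem-loop, which is bound by the stem-loop binding protein SLBP and cut off a few bases downstream, so that polyA selection catches few of them. Some clustered genes can also give longer, polyadenylated transcripts in differentiated or slowly dividing cells. A level in these libraries is therefore the level of the RNA that passed polyA selection, not of total histone mRNA.

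The libraries held 56353665 (WT) and 59600850 (Fabp4-/-) estimated read pairs on genes, recovered from the authors' normalised counts and the value that 1 read pair has in each library. Of these, 21143 pairs (0.0375%) and 15409 pairs (0.0259%) fell on clustered histone genes. The targeted gene Fabp4 held 1786 pairs (44.1 TPM) in the WT library and 1 pair (0.03 TPM) in the other, which is the order the labels give. The hepatocyte markers Alb (49157 and 65262 TPM, WT first here and below) and Ttr (3469 and 7455 TPM) were present in both. TPM is the length-corrected share of a transcript in its library. The normalised counts are not corrected for length, and the authors scaled them by 1 factor per library. The 2 scales place zero differently: 13557 genes had 1 TPM or more in at least 1 library, and over these the median log2 ratio of Fabp4-/- over WT was -0.46 for TPM (pseudocount 0.5) and 0.040 for normalised counts (pseudocount 10). The 20 genes with the most read pairs held 28.2% of the pairs in WT and 36.8% in Fabp4-/-. Both scales are given throughout, and a ratio is to be read against its own median.

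The sequences that decide how such an mRNA ends differed among the most abundant members, and they are shown for that reason. The first set gives the stem-loop in capitals with up to 5 bases before and 8 after it, 5′ to 3′, in transcripts of GENCODE M21 (mm10). These are chr3:96239776-96239804 on the minus strand, chr13:23739507-23739535 on the plus strand, chr13:21831790-21831818 on the minus strand and chr13:23531453-23531481 on the plus strand, all in the 3′ UTR.
Hist2h2aa2: aaaaaGGCTCTTTTCAGAGCCacccactg
Hist1h1c: caaaaGGCTCTTTTCAGAGCCaccactcc
Hist1h4n: ctaaaGGCCCTTTTCAGGGCCatccaatt
Hist1h4h: ccaaaGGCCCTTTTCAGGGCCgcccacat

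The second set shows, in capitals, the match to a poly(A) signal (AATAAA or ATTAAA) closest to the 3′ end in 3 members that have one. Such a match is one of letters, and whether it acts as a signal was not tested. In Hist1h4h the match lies within the 49 bases that follow the stem-loop. The 3 stretches are chr13:23692450-23692479, chr13:23740330-23740359 and chr13:23531476-23531505, each on the plus strand. Their matches begin 27, 26 and 35 bases before the deposited 3′ end.
Hist1h2bc: tgatgtatatatAATAAAtgtcatgtaaag
Hist1h1c: gtgtatgcttctAATAAAaagcgtttagtt
Hist1h4h: ccacattttcttATTAAAagagcgaacatg

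Few of the clustered histone genes were measured at an appreciable level. Of the 68, 57 were above 0 in at least 1 library and 11 were at 0 in both, where a count of 0 allows up to 3 read pairs per library. Only 19 (the measured members below) reached 1 TPM in the higher library and 49 did not, whereas 54.6% of the 22098 protein-coding genes did. In the WT library 1 TPM stood for 5.93 to 113 read pairs among members of at least 1 TPM, since these transcripts are short. Summed over the 68 members, the level was 847 TPM for WT and 538 TPM for Fabp4-/-. The 4 most abundant members, Hist1h2bc, Hist2h2aa2, Hist2h2aa1 and Hist1h1c, held 85.8% of that sum in WT and 90.2% in Fabp4-/-.

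Hist1h2bc was the most abundant member, at 359 and 289.9 TPM. It is an H2B gene of the Hist1 cluster (chr13:23684199-23692488, plus strand). By normalised counts it was at 8004 and 9584, so its direction turned with the scale: the log2 ratio was -0.31 by TPM and 0.26 by normalised counts. Hist2h2aa2 followed at 226 and 111 TPM, and its near-copy Hist2h2aa1 at 75.9 and 50.5 TPM. Hist1h1c, an H1 gene whose protein is H1.2, was at 66.5 and 33.9 TPM. Hist1h4h (30.6 and 7.75 TPM), Hist1h2ap (27.3 and 23.96 TPM) and Hist1h4n (14.0 and 1.42 TPM) completed the 7 highest.

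**Figure D1:**
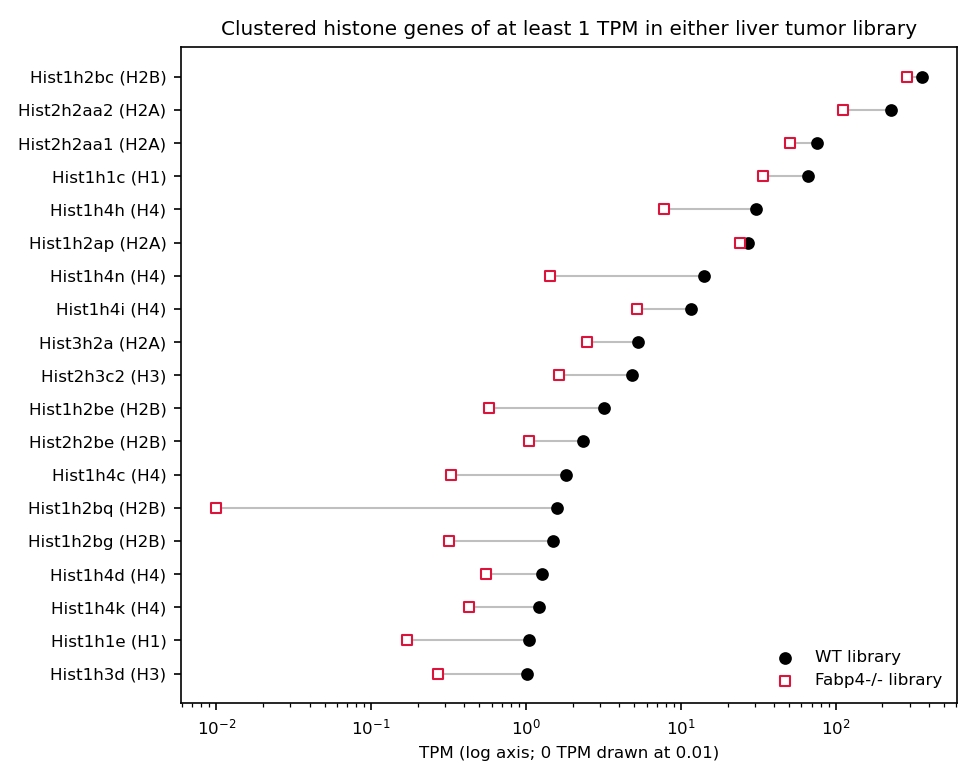
TPM (log axis) of the 19 clustered histone genes of at least 1 TPM in either library, with filled circles for WT and open squares for Fabp4-/-; the histone class is in brackets. Each square lies to the left of its circle, from 289.9 against 359 TPM for Hist1h2bc to 0 against 1.59 TPM for Hist1h2bq, and the median log2 ratio of all genes on this scale was -0.46.

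Most measured members were lower in the Fabp4-/- library by more than the typical gene. All 19 had a lower TPM in Fabp4-/-. A 2-fold lower TPM was reached by 10 of them and a 2-fold higher one by 0, against 14.2% and 2.18% of all genes tested. By normalised counts 5 passed 2-fold downward and 0 upward, against 6.26% and 4.78%. The median log2 ratio of the 19 was -1.03 by TPM and -0.57 by normalised counts, beside -0.46 and 0.040 for all genes. At least 4-fold lower were 2 members on either scale (background 1.85% by TPM and 1.27% by normalised counts), Hist1h4n and Hist1h2bq, and 0 were 4-fold higher (0.664% and 0.944%). Hist1h2bq shares most of its sequence with Hist1h2br. The sum of the 2 had a log2 ratio of -1.33 by TPM with the pseudocount of 0.5. By normalised counts without a pseudocount it was -2.05 (interval -2.69 to -1.44). All 19 reached 1 TPM in WT. Those that did so in WT alone could only have passed the minimum by being high there, which favours lower ratios and a lower median. Among the 2-fold lower members by TPM these were Hist1h2be, Hist1h4c, Hist1h2bq, Hist1h2bg and Hist1h1e. By normalised counts they were Hist1h2be, Hist1h2bq and Hist1h1e. Hist1h4d, Hist1h4k and Hist1h3d also reached 1 TPM in WT alone. Without that minimum, 44 of the 57 members above 0 had a lower TPM in Fabp4-/-, which is near the share of all such genes (78.8%). A lower normalised count was found in 38 of them, above the share of all such genes (52.9%).

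The summed level differed less than the typical member. The log2 ratio of summed TPM was -0.66, and that of summed normalised counts was -0.093 (95% exact binomial interval -0.12 to -0.063, counting error only). Without Hist1h2bc, a choice made after its value was seen, these were -0.98 and -0.43 (interval -0.47 to -0.39). The 4 highest members together gave -0.02 by normalised counts (-0.05 to 0.01), and the other 64 gave -0.68 (-0.77 to -0.59).

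Linker histone genes numbered 6, of which Hist1h1c and Hist1h1e reached 1 TPM. Hist1h1c gave 3728 normalised counts in WT and 2816 in Fabp4-/- (log2 ratio -0.40, interval -0.48 to -0.33; -0.96 by TPM). Hist1h1e, the gene of H1.4, was at 1.05 and 0.17 TPM on 27 and 5 read pairs, with an interval from -3.80 to -0.67 on normalised counts. Hist1h1d was at 0.70 and 0.44 TPM, Hist1h1b at 0.31 and 0.03 TPM, and Hist1h1a at 0.05 and 0.04 TPM. Hist1h1c alone supplied nearly the whole of the class sum, which was 68.7 TPM in WT and 34.6 TPM in Fabp4-/-.

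H2A genes numbered 19 and summed to 337 TPM in WT and 189.5 TPM in Fabp4-/- (log2 ratio of summed normalised counts -0.28, interval -0.34 to -0.22). Hist2h2aa1 (chr3:96245497-96246082) and Hist2h2aa2 (chr3:96239749-96240276) supplied most of it. Every 151-base stretch of Hist2h2aa2, the length of a read, also occurs in Hist2h2aa1, so how reads were divided between the pair is uncertain and their sum is the firmer value. That sum was 302 TPM in WT and 161 TPM in Fabp4-/- on 4921 and 3064 read pairs (log2 ratio -0.32 by normalised counts, interval -0.39 to -0.25). Hist1h2ap was the least reduced of the measured members, at 27.3 and 23.96 TPM, and by normalised counts it was higher in Fabp4-/-, at 325 and 424 (log2 ratio 0.39, interval 0.17 to 0.59). The read windows of Hist1h2ap are 91.0% shared with Hist1h2ao (0.27 and 0.24 TPM), and the pair summed to 27.5 and 24.2 TPM. Hist3h2a, the highest member of the Hist3 cluster, was at 5.32 and 2.47 TPM. The remaining 15 H2A genes stayed under 1 TPM. Hist1h2al, which stands apart from the others on chromosome 13, was at 0.25 and 0.79 TPM on 2 and 8 read pairs.

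H2B genes numbered 18 and were the only class whose summed normalised counts were higher in Fabp4-/- (log2 ratio 0.19, interval 0.15 to 0.23), although its summed TPM was lower, 370.0 against 293. Hist1h2bc set that sum. The other 4 measured H2B genes were lower on both scales. Of these, Hist1h2be, Hist1h2bg and Hist1h2bq reached 1 TPM in WT alone, which favours lower ratios. Without the minimum, 9 of the 14 H2B genes above 0 were lower in Fabp4-/- by TPM and 8 by normalised counts. The shares of all such genes were 78.8% and 52.9%. Hist1h2be was at 3.18 and 0.58 TPM on 287 and 60 read pairs (log2 ratio -1.89 by normalised counts, interval -2.32 to -1.49). Hist2h2be, a gene known to be polyadenylated in differentiated cells, was at 2.32 and 1.05 TPM (-0.58, interval -0.89 to -0.28). Hist1h2bg was at 1.49 and 0.32 TPM on 20 and 5 read pairs. Hist1h2bq was at 1.59 TPM in WT and 0 in Fabp4-/-. Its near-copy Hist1h2br was at 0.04 and 0.35 TPM, the opposite order, and 92.3% of the read windows of Hist1h2bq lie in Hist1h2br. How reads were divided between the pair is uncertain, so the 0 of Hist1h2bq sets no firm bound on its ratio. The sum is the firmer value, at 1.63 and 0.35 TPM on 143 and 27 read pairs. Its log2 ratio was -1.33 by TPM with the pseudocount of 0.5, which is larger than the summed Fabp4-/- TPM. By normalised counts without a pseudocount it was -2.05 (interval -2.69 to -1.44), so the 2 values are not like for like.

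H3 genes numbered 12 and were nearly absent, at 7.52 and 3.17 TPM in sum. The highest was Hist2h3c2, at 4.81 and 1.63 TPM, next to Hist2h3c1, at 0 and 0.62 TPM. Of the windows of Hist2h3c2, 59.3% occur in Hist2h3c1. The pair summed to 4.81 and 2.25 TPM, and its log2 ratio by normalised counts, -0.19, had an interval that includes 0 (-0.53 to 0.14). Neither the 2.82 of Hist2h3c1 (normalised counts, pseudocount 10) nor the -0.92 of Hist2h3c2 is a measurement independent of the other. All windows (100%) of Hist2h3c1 occur in another gene, but only 30.8% in a member. Gm20634, which overlaps it on the same strand, was at 13.8 and 2.95 TPM and is not in the pair sum. How reads were divided among these genes is uncertain, and so is the pair sum. Hist1h3d was at 1.01 and 0.27 TPM on 17 and 5 read pairs.

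H4 genes numbered 13. Summed, they were at 63.7 and 17.2 TPM, a log2 ratio of -1.14 by normalised counts (interval -1.32 to -0.96), the lowest of the 5 classes. Of the 12 above 0, 10 were lower in Fabp4-/- on both scales, near the share of all such genes by TPM (78.8%) and above it by normalised counts (52.9%). Hist1h4n gave 156 read pairs in WT and 18 in Fabp4-/-, or 138 and 20.7 normalised counts, and its log2 ratio of -2.73 (interval -3.54 to -2.04) was the lowest of the members with reads in both libraries and at least 20 pairs in 1 of them. Hist1h4h gave 401 and 117 read pairs (-1.41, interval -1.72 to -1.11), and Hist1h4i gave 290 and 149 (-0.60, interval -0.89 to -0.31). Hist1h4c was at 1.82 and 0.33 TPM, Hist1h4d at 1.27 and 0.55 TPM, and Hist1h4k at 1.21 and 0.43 TPM, on 17 read pairs or fewer in each library. Hist2h4 (0.90 and 0.16 TPM) and Hist1h4j (0.88 and 0.11 TPM) lay under the minimum, with intervals of -2.99 to -1.05 and -5.01 to -0.92 on normalised counts. Only Hist1h4a (0.20 and 0.69 TPM, 3 and 13 read pairs) and Hist4h4 (0.07 and 0.13 TPM, 9 and 19 read pairs) had higher values in Fabp4-/-. Of the windows of Hist1h4n, 77.1% lie in Hist1h4m, which was at 0 in both libraries.

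**Figure D2:**
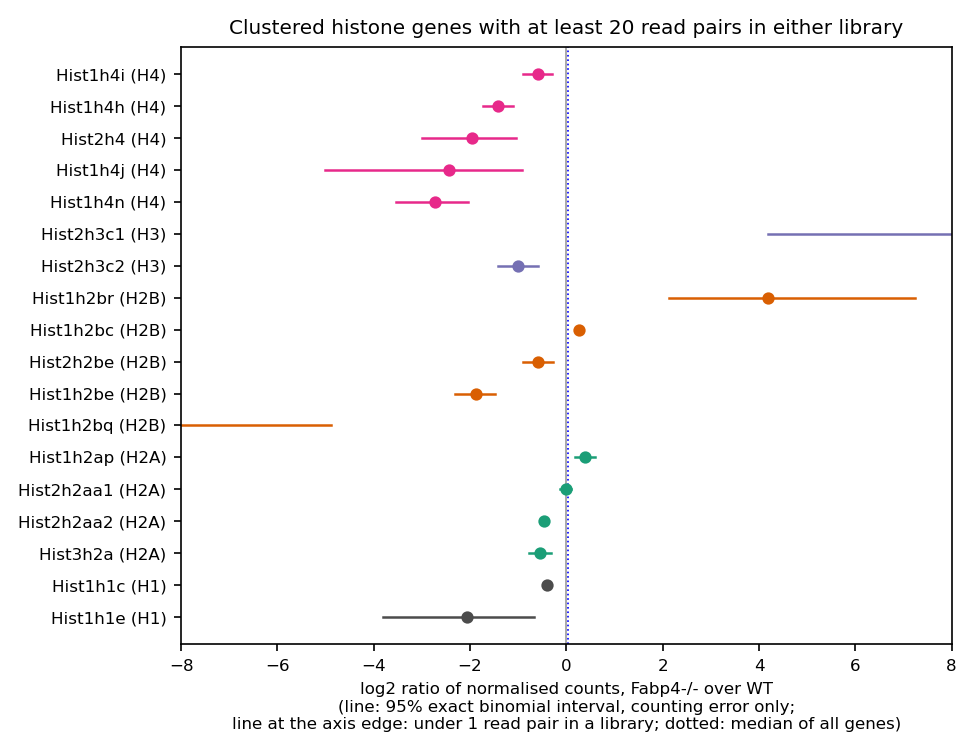
Log2 ratio of normalised counts, Fabp4-/- over WT, for the 18 clustered histone genes with at least 20 read pairs in either library, with 95% exact binomial intervals (counting error only); the dotted line is the median of all genes, 0.040. The 5 H4 genes lie between -2.73 and -0.60 and Hist1h2bc at 0.26, and the lines of Hist1h2bq and Hist2h3c1 run off the axis because 1 library held under 1 read pair of each.

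Among the measured members, those 2-fold lower by TPM lay in both the Hist1 and the Hist2 cluster, and those by normalised counts in Hist1. Hist2h4 of the Hist2 cluster, under the minimum at 0.90 TPM in WT, was also 2-fold lower (log2 ratio -1.08 by TPM and -1.41 by normalised counts). The Hist1 cluster on chromosome 13 has 55 members, of which 14 were measured, 8 were at least 2-fold lower by TPM (14.2% of all genes tested) and 5 by normalised counts (6.26%). Of those 8, 5 reached 1 TPM in WT alone. The Hist2 cluster on chromosome 3 has 10, of which 4 were measured, 2 were 2-fold lower by TPM and 0 by normalised counts. These are Hist2h2aa2 and Hist2h3c2, each part of a near-identical pair. With the pseudocount of 0.5 TPM, neither pair sum was 2-fold lower (log2 ratios of -0.90 and -0.95). The pseudocount weighs most on the low sum of Hist2h3c1 and Hist2h3c2, 4.81 and 2.25 TPM. The Hist3 cluster on chromosome 11 has 2, of which Hist3h2a was measured (log2 ratio -0.97 by TPM and -0.53 by normalised counts). Hist4h4 on chromosome 6 stayed under 1 TPM. Within Hist1, the stretch at chr13:23531050-23764358 held 29 members and 472 TPM in WT against 336 TPM in Fabp4-/-, most of it Hist1h2bc, and the stretch at chr13:21715763-21837530 held 18 members and 46.1 TPM against 27.4 TPM.

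H2A and H2B genes often lie head to head, and 12 such pairs were under 1 kilobase apart, a layout examined after the values were known. In 5 of them 1 side reached 1 TPM and in none did both. In the other 7 both sides stayed under 1 TPM, and the testis pair Hist1h2ba and Hist1h2aa was at 0 throughout. Hist1h2ac and Hist1h2bc start 274 bases apart, yet Hist1h2ac was at 0.44 and 0.08 TPM where Hist1h2bc was at 359 and 289.9 TPM. Hist1h2ap (27.3 and 23.96 TPM) faces Hist1h2br (0.04 and 0.35 TPM) across 235 bases, and Hist2h2be (2.32 and 1.05 TPM) faces Hist2h2ac (0.26 and 0.27 TPM) across 238 bases.

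The stretch between Hist1h2ac and Hist1h2bc is shown because both genes start at its ends. It is the RefSeq promoter of Hist1h2ac, 250 bases before to 50 bases after its start, on the minus strand at chr13:23683910-23684209 (GRCm38.p6). Capitals mark matches to TATAAA (the TATA box), CCAAT and ATTTGCAT (the octamer), sought on both strands. None of these motifs contains another.
Hist1h2ac: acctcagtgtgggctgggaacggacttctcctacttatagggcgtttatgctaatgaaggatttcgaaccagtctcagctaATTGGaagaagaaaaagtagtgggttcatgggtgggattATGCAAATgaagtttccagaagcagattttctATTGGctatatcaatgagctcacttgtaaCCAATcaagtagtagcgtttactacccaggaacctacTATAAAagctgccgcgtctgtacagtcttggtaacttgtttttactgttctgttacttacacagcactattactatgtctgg

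The TATA box begins 32 bases before the start of Hist1h2ac, the CCAAT matches 169, 98 and 69 bases before it, and the octamer 130 bases before it. RefSeq promoters were matched for 61 of the 68 members. CCAAT occurred in 52 of them (85.2%), against 37.4% of 32851 mouse promoters of the same length. It was in each matched H1, H2A, H2B and H3 promoter but in only 3 of 12 H4 promoters. TATAAA occurred in 35 (57.4%, against 13.6%) and ATTTGCAT in 13 (21.3%, against 1.74%), all 13 in H2A or H2B genes. Among the matched members, CCAAT was in 12 of the 16 of at least 1 TPM and in 40 of the other 45, TATAAA in 8 and 27, and ATTTGCAT in 2 and 11.

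The annotated 3′ ends were compared next, since polyA selection acts there. The search for the histone stem-loop, also made after the values were known, found it in 44 members and in 4 of the 21834 protein-coding genes of GENCODE M21 that are not members. The form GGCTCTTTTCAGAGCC was in 26 members, of the classes H1, H2A, H2B and H3. No H4 member carried it: 7 H4 genes had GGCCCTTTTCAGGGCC, 2 had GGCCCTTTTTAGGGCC and 2 had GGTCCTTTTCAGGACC. A match to a poly(A) signal, AATAAA or ATTAAA on the sense strand, lay in the 50 bases before the deposited 3′ end of 15 members. Measured at the end of the M21 transcripts it was in 17 members (25.0%), against 80.7% of 21901 protein-coding genes.

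By these features the members formed 4 groups. In 31 the gene ended at most 100 bases past the stem-loop (the tail). These include Hist1h2bh and Hist1h2bm, whose deposited ends lie before the stem-loop. Of the 31, 10 reached 1 TPM, and the group held 45.7% of the WT sum, mainly through Hist2h2aa1 and Hist2h2aa2. In 11 the tail was over 100 bases; 4 of these reached 1 TPM, with Hist1h1c the highest at a tail of 840 bases, and 8 had a poly(A) signal. In 5 H2B genes a spliced form is annotated: Hist1h2bc, Hist1h2be, Hist1h2bp, Hist1h2bq and Hist1h2br. These held 42.9% of the WT sum and 54.1% of the Fabp4-/- sum, nearly all of it Hist1h2bc, whose M21 transcript has 2 exons and no stem-loop match. The last group of 21 had no stem-loop in its annotated transcript; 13 of those annotations stop at the stop codon, 10 of the genes were at 0, and the group held 0.596% of the WT sum. A match to a poly(A) signal was present in 7 of the 19 measured members, Hist1h4h among them, and in 8 of the 49 others. Hist2h2aa2, Hist2h2aa1, Hist1h2ap and Hist1h4n were among the 7 highest members with a short tail and no such signal. The position in M21 equals the deposited one for 45 members, so the groups are approximate for the other 23.

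**Figure D3:**
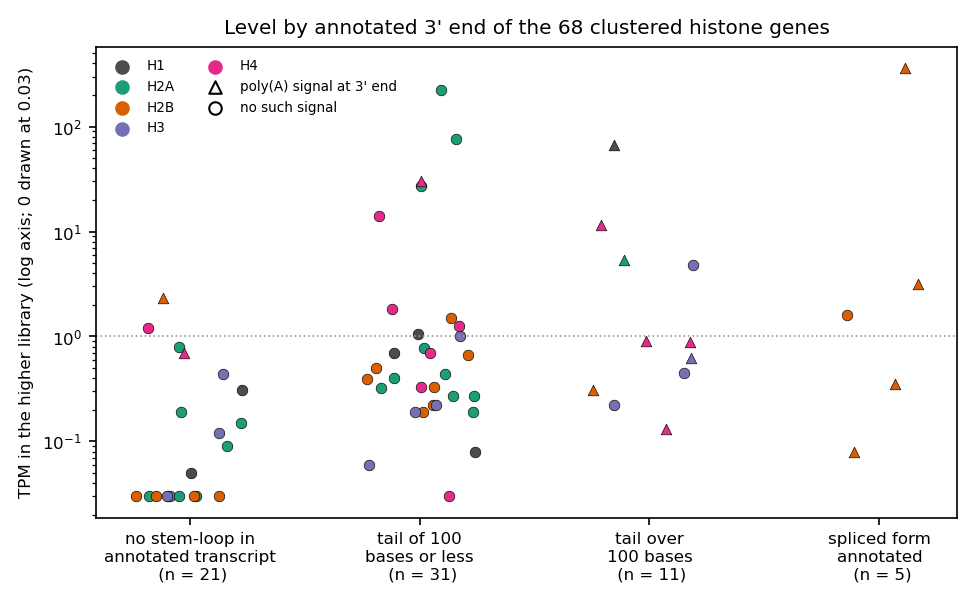
TPM in the higher library (log axis, 0 drawn at 0.03) of the 68 clustered histone genes by annotated 3′ end, coloured by class, with triangles for genes that have a poly(A) signal in the 50 bases before the deposited end; the dotted line is 1 TPM. Hist1h2bc (359 TPM) tops the spliced group and Hist2h2aa2 (226 TPM) the group with a tail of 100 bases or less, while the group without a stem-loop does not pass 2.32 TPM.

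Of the 6 clustered genes known to give polyadenylated transcripts, 4 reached 1 TPM (Hist1h2bc, Hist1h1c, Hist3h2a and Hist2h2be). At the pseudocounts of 0.5 TPM and 10 normalised counts, none of the 4 differed 2-fold. With a pseudocount of 0.1 TPM, Hist3h2a and Hist2h2be were past 2-fold lower (log2 ratios -1.08 and -1.07). Their median log2 ratio was -0.91 by TPM and -0.47 by normalised counts, and their sum was 434 TPM in WT and 328 TPM in Fabp4-/-. Hist3h2ba was at 0.20 and 0.31 TPM. The testis genes Hist1h1t, Hist1h2aa (the H2A variant TH2A) and Hist1h2ba (TH2B) were absent but for 2 read pairs of Hist1h1t in WT. The germ cell markers summed to 0.22 and 0.05 TPM.

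Histone variants encoded outside the clusters, most of them polyadenylated and made outside S phase as well, were measured in 10 of 11 cases. Their sum, 801 TPM in WT and 726 TPM in Fabp4-/-, was close to that of the 68 clustered genes in WT and above it in Fabp4-/-. H3f3a (218 and 197 TPM) and H3f3b (158 and 171 TPM) both encode H3.3, while H2afj stood at 106 and 74.5 TPM and H2afz, the gene of H2A.Z, at 92.0 and 81.2 TPM. Only H1fx was at least 2-fold lower by TPM (1.6 and 0.51 TPM), none by normalised counts, and the medians were -0.20 and 0.38.

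Factors listed for histone mRNA 3′ end formation and related steps differed little from the typical gene. Slbp was at 18.1 and 12.6 TPM, or 1059 and 1084 normalised counts. Of the 16 measured factors none differed 2-fold on either scale with the pseudocounts included, and their medians were -0.55 and -0.10. Srrt (93.7 and 70.7 TPM), Sympk (50.4 and 39.1 TPM), Upf1 (23.3 and 17.3 TPM) and Cpsf1 (19.1 and 12.1 TPM) were the highest of them. All 16 histone chaperones and related factors were measured; 2, Rbbp7 (96.5 and 34.3 TPM) and Cabin1 (7.18 and 3.2 TPM), were 2-fold lower by TPM and none by normalised counts, with medians of -0.51 and -0.07. Npm1 (199 and 124 TPM), Ssrp1 (46.6 and 33.5 TPM) and Rbbp4 (31.8 and 22.8 TPM) came within 2-fold.

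Genes of S phase and mitosis were also near the typical gene, and their link to the histone values was not tested. With the pseudocounts included, none of the 30 measured of 34 differed 2-fold on either scale. Their median log2 ratio was -0.33 by TPM and 0.12 by normalised counts. Pcna, the DNA polymerase clamp, was at 25.2 and 22.0 TPM, and Tyms (9.92 and 13.2 TPM), Mcm7 (10.3 and 7.23 TPM) and Cdk1 (7.86 and 10.1 TPM) came next. The proliferation markers Mki67 and Top2a were at 3.48 and 1.98 TPM and at 6.83 and 4.91 TPM, with log2 ratios by normalised counts of -0.25 and -0.26.

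**Figure D4:**
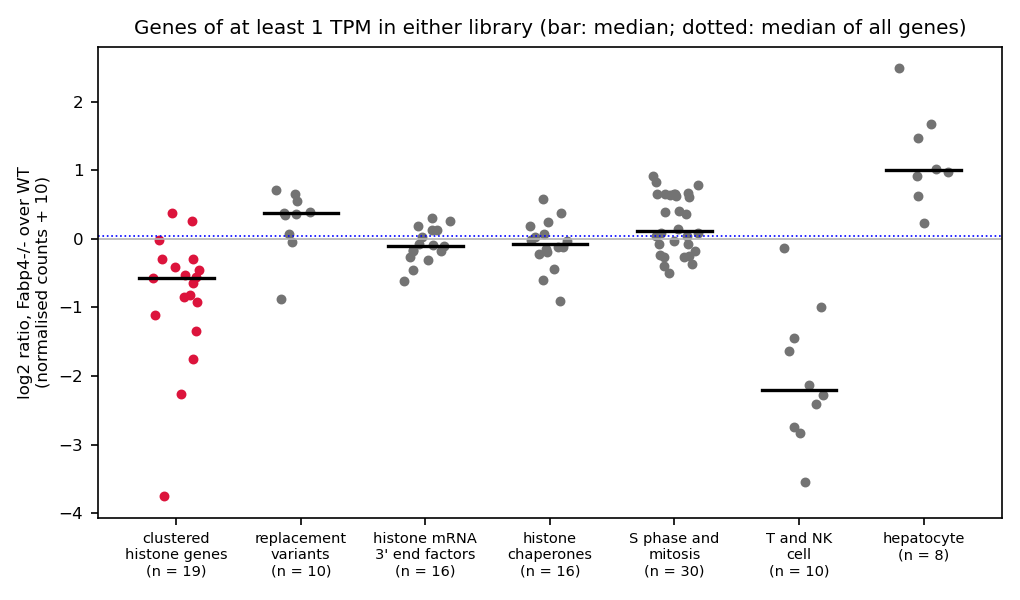
Log2 ratio of normalised counts (pseudocount 10), Fabp4-/- over WT, of each gene of at least 1 TPM in either library, for the clustered histone genes and 6 lists; bars are medians and the dotted line is the median of all genes. The clustered histone genes have a median of -0.57, the S phase and mitosis list 0.12, the T and NK cell list -2.20 and the hepatocyte list 1.0. Genes that passed the minimum in WT alone favour a lower median.

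Markers of other cell types moved between the same libraries. Of the 12 T and NK cell markers 10 were measured, and 9 of them were at least 2-fold lower in Fabp4-/- on both scales. Cd3g was at 16.2 and 1.12 TPM, Nkg7 at 14.4 and 1.43 TPM, Lck at 13.3 and 1.31 TPM and Cd8a at 7.91 and 0.40 TPM; the list summed to 73.3 TPM in WT and 8.21 TPM in Fabp4-/-, with none of its 12 genes at 0. All 8 B and plasma cell markers were measured, 4 were 2-fold lower by TPM and 2 by normalised counts, and the list summed to 4353 and 2957 TPM, mostly Igkc. The 8 hepatocyte markers summed to 94557 and 130074 TPM, 2 of them at least 2-fold higher by TPM and 4 by normalised counts. The macrophage, neutrophil, erythroid and endothelial lists had no measured gene 2-fold lower on either scale with the pseudocounts included. By normalised counts 2 of 8 measured macrophage markers and 1 of 8 endothelial markers were at least 2-fold higher, and by TPM none. Of 4 measured neutrophil markers, 1 was 2-fold higher by TPM and 2 by normalised counts. Of 7 measured stellate cell and fibroblast markers, 2 were 2-fold lower by TPM and 1 by normalised counts, the latter Reln at 85.7 and 28.97 TPM, while Acta2 was 2-fold higher by normalised counts (20.2 and 33.3 TPM). The part of these cell types in the histone values was not tested, and in bulk tissue fewer cells of a type and less RNA per cell cannot be told apart.

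Reads of 24 members could also belong to another annotated gene at the same place. Gm20634, a processed transcript that overlaps Hist2h2aa1 and Hist2h3c1 on the same strand, was at 13.8 and 2.95 TPM. The labels and methods do not say whether counting used strand, so reads from genes on the opposite strand cannot be told apart from those of the histone genes. The highest of these were 3 entries annotated as miRNA, AC125099.2 at Hist2h2aa2, AC125099.1 at Hist2h2aa1 and Gm44341 at Hist1h2al, each listed at 18.1 and 9.27 TPM. Gm44313, a miRNA entry at Hist3h2a, was at 2.98 and 0 TPM, and the antisense genes Gm20632 (at Hist2h2aa2) and Gm20633 (at Hist2h2aa1) were at 1.39 and 1.06 TPM and at 0.34 and 0.13 TPM.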

How the data were processed

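PolyA RNA of liver tumors was sequenced by the authors as 151 bp read pairs, 1 library for WT and 1 for Fabp4-/-. The genome build mm10, RSEM 1.2.31 and STAR 2.5.2 are named in the submitters' processing notes; for the strand setting and annotation release the sources used here give nothing. The authors deposited TPM, which sum to 1000000 per library. They also deposited normalised counts, a signal made of estimated read counts divided by 1 factor per library; 1 read pair was set to the commonest non-zero value (0.882 and 1.13), which makes 86.0% and 86.5% of non-zero values whole to within 0.0001. The authors' columns of fold change, posterior probability and FDR were not used.

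Ratios are log2((Fabp4-/- TPM + 0.5)/(WT TPM + 0.5)), and the same with normalised counts + 10, for genes of at least 1 TPM in the higher library, and they understate the differences of low genes. Class and list sums and the ratios given with intervals carry no pseudocount. Intervals are 95% exact binomial and, like the floor of 3 read pairs, cover counting error only, without regard to PCR duplicates. No test was possible with 1 library per genotype, and a 2-fold difference is a rule of size. The ratio and interval code was tested on simulated data.

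Named members were the 10 of highest TPM, the 5 highest and 5 lowest ratios among members with at least 20 read pairs, the polyadenylated and testis lists, and the highest of each class and cluster; from other lists up to 4 of highest TPM, with Slbp, Mki67, Top2a, Pcna and Fabp4. Further members, Acta2, Cabin1, H1fx and the overlapping genes were named after their values were seen. Members and lists were chosen with earlier results of these data known. Of the 68 members, 66 were matched to GENCODE M21 by identifier and 2 by symbol and position; windows of 151 bases were compared on both strands. Alternatives were the pseudocount, the minimum, the fold and 4 scalings. The work ran in Python 3.11.15 with scipy 1.17.1, pandas 2.3.3, numpy 2.4.6 and, for plots, matplotlib 3.10.9.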

Additional observations from a re-analysis of the deposited data

How the results depend on the processing

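No paired analysis was possible because there is only 1 library of either genotype, and for the same reason no library could be left out. In the next sentences the share of all genes in the same setting is in brackets. The count of 10 members at least 2-fold lower (14.2%) was 4 of 9 with a minimum of 5 TPM (11.8%). With a pseudocount of 0.1 TPM it was 15 (18.8%), and with 1 TPM it was 8 (10.1%). It was 5 by normalised counts (6.26%) and 5 after centring on the median of all genes (4.94%). At a 1.5-fold threshold it was 16 (39.2%) and at a 4-fold threshold 2 (1.85%). The count of 0 members at least 2-fold higher (2.18%) became 1 with no minimum (1.41%) and 1 with a minimum of 20 read pairs (1.58%). In both cases it was Hist2h3c1, whose windows all occur in another gene, 30.8% of them in Hist2h3c2. The median log2 ratio of -1.03 was -1.31 with a pseudocount of 0.1 TPM, -0.92 with 1 TPM, -0.53 with no minimum, -0.57 by normalised counts, -0.57 after median centring and -0.63 after upper quartile scaling. The summed level of -0.66 was -0.093 by normalised counts, -0.15 after upper quartile scaling, -0.50 with totals taken without the 20 top genes and -0.98 without Hist1h2bc, the last chosen after seeing the data. Over all genes the count of 2-fold lower was 1928 by TPM, 849 by normalised counts and 670 after centring, and that of 2-fold higher 296, 648 and 625. In each of these settings the median of the members was below that of all genes. Of 18 named members with reads, 11 had a negative ratio in each pseudocount and scaling tried, 4 a positive one and 3 both. Summing near-identical pairs first, also chosen after seeing the data, left the count of 2-fold lower within 1.5 times.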

Other observations

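The Hist1 cluster also holds genes that are not histones, which share its stretch of chromosome 13 and were examined after the histone values were seen. Of 46 such protein-coding genes lying between the outermost members, the distant Hist1h2al left aside, 35 were at 0 in both libraries, most of them vomeronasal receptor genes of the Vmn1r family. The 7 that reached 1 TPM had median log2 ratios of -0.27 (TPM) and 0.25 (normalised counts). None was 2-fold lower on either scale with the pseudocounts included. Hfe, a regulator of hepcidin and iron uptake, was at 20.7 and 17.2 TPM. The solute carriers Slc17a3 (36.3 and 30.6 TPM) and Slc17a2 (27.4 and 21.4 TPM) were near the typical gene, and Slc17a4 was higher in Fabp4-/-, at 24.1 and 33.6 TPM (log2 ratio 1.04 by normalised counts). Zfp322a was at 6.52 and 3.08 TPM, or 1148 and 859 normalised counts.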
